A study of Homo sapiens with 14 samples.

Results

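The proteasome subunit genes were followed through the whole series as the gene names made of PSM, a letter from A to F and a number. The rule found 44 of the 59471 gene names in the count files. Of these, 43 had a read in at least 1 library and 42 passed the filter on low counts in every comparison, while PSMA8, a testis-associated alpha subunit, had no read and PSMB11, the thymic beta subunit, had 8 reads in all. The 44 members are 8 alpha and 7 constitutive beta subunit genes of the 20S core, the 3 immunoproteasome genes PSMB8, PSMB9 and PSMB10 (shown apart), 6 ATPases and 14 non-ATPase genes of the 19S group, 4 activators, 1 inhibitor and PSMB11. The cells were SCC23, a human head and neck squamous cell carcinoma (HNSCC) line, transfected with Cas9, GFP and a guide RNA and then sorted for GFP. KMT2D-WT cells had received a LacZ guide, and different guides against KMT2D, an H3K4 methyltransferase gene, gave the lines labelled KO1 and KO2. No selection of single clones is described for them. Poly-A RNA was sequenced from cells kept with glucose (+Glc) or deprived of it for 6 h (-Glc). Both conditions had 3 WT and 4 KO libraries from 2 experiments: 1 WT, 1 KO1 and 1 KO2 library in experiment 1, and 2 WT, 1 KO1 and 1 KO2 library in experiment 2.

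The proteasome is the protease that degrades proteins tagged with ubiquitin. Its 20S core is a stack of rings in which alpha subunits form the gate and beta subunits carry the active sites, and the 19S cap binds, unfolds and feeds substrates, its ATPases forming the motor and its non-ATPase subunits the ubiquitin receptors, the deubiquitinase and the scaffold. Interferon signalling exchanges the 3 catalytic beta subunits for PSMB8, PSMB9 and PSMB10 and raises the PA28 activator PSME1 and PSME2, a set best known for making peptides for MHC class I. When proteasome activity falls, the transcription factor NFE2L1 raises subunit genes together.

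Total counts ran from 15669154 to 62968057 per library, and the members took 0.612% to 0.954% of them. The 4 +Glc libraries of experiment 2 were counted from both mates, so each fragment could count more than once there. In experiment 2 without glucose the WT pair and the KO pair stood very close, with a chi-square per gene of 1.71 and 1.78 against 25.9 to 83.0 in the other replicate pairs. Those pairs differed by more than sampling noise and were kept apart, but the spread within them may be technical, and results with each pair summed are given where they matter. Both KO libraries of that experiment lay near KO2 of experiment 1 at 44 genes that told the lines apart (mean log2 distance 0.336 and 0.330 from KO2, 2.94 and 2.96 from KO1), so their line labels are in doubt, and KO1 and KO2 were compared with +Glc libraries only. KMT2D mRNA was 279 CPM in experiment 1 and 266 and 271 CPM in experiment 2 in +Glc WT cells, and 182 (KO1) and 323 (KO2) CPM in experiment 1 and 184 (KO1) and 373 (KO2) CPM in experiment 2 in +Glc KO cells. The libraries labelled KO1 were thus below and those labelled KO2 above every WT library. In -Glc cells it was 239 CPM in experiment 1 and 233 and 231 CPM in experiment 2 for WT, and 19.9 (KO1) and 190.2 (KO2) CPM in experiment 1 and 152 (KO1) and 145 (KO2) CPM in experiment 2 for KO, all below WT, and KMT2D was called in neither glucose condition (adjusted p = 0.967 and 0.247, edgeR). A guide need not lower the mRNA of its target, so this level does not test the edit. Epithelial EPCAM was at 231 to 426 CPM, whereas leukocyte PTPRC and CD3E were at 0 to 0.0627 CPM. Epithelial markers were not all high. KRT5 ran from 1.505 CPM in a +Glc KO library to 225.1 CPM in a -Glc KO library, and KRT6A from 0 to 1.128 CPM. Leukocyte CD68 was at 0 to 0.2904 CPM. The leukocyte gene ITGAM lay at 0.0949 to 0.907 CPM and was lower in KO without glucose (log2 fold change -1.58, adjusted p = 0.015). The ITGAM call was not examined with the close pairs summed, and its part in the results was not tested.

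Levels are counts scaled to library size (CPM), with TMM factors over all 14 libraries. KO and WT were compared by edgeR's quasi-likelihood test with the experiment as a covariate, and a gene was called at a Benjamini-Hochberg adjusted p under 0.05 over all genes tested. The 2 experiments were independent and the KO lines were separate, but the sources used here do not say whether the 2 WT libraries of experiment 2 came from separate cultures, and the spread between those may be technical. Members that share more than 50% of their main transcript with another gene name (PSMA1, PSMA2, PSMA6, PSMB10, PSMC1 and PSMD7) lose reads that match both names, and their values are less certain. PSMA6 reads could also go to its pseudogene copies, which held as many reads as the gene itself (105% of its total).

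The question was how the proteasome genes stood in KMT2D-KO cells, and whether glucose changed that. With glucose, the members were called in both directions: 8 of 42 were higher and 8 lower in KO, with 13% and 11.7% of all tested genes called in those directions (24.7% in either). The median member had a log2 fold change of 0.13, against 0.02 over all genes. Without glucose, 16 of 42 were higher and 4 lower, where 25.9% and 24.9% of all genes were called (50.8% in either), with a median of 0.23 against 0.00. With the 2 close pairs summed, the -Glc count fell to 2 higher (PSMF1 and PSMB4) and 1 lower (PSMD11). Without the experiment as a covariate, 1 member was higher and 1 lower in each condition, again PSMF1 and PSMD11. With glucose the counts fell to 1 and 2 without the WT library of experiment 1, to 2 and 3 and to 5 and 3 without the libraries labelled WT1 and WT2 of experiment 2, and the lower count to 5 and 4 without KO1 of experiment 1 and of experiment 2. Without glucose they were 10 and 1 without the WT library of experiment 1, 24 and 10 without KO1 of experiment 1, and 2 lower without any 1 library of experiment 2.

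**Figure D1:**
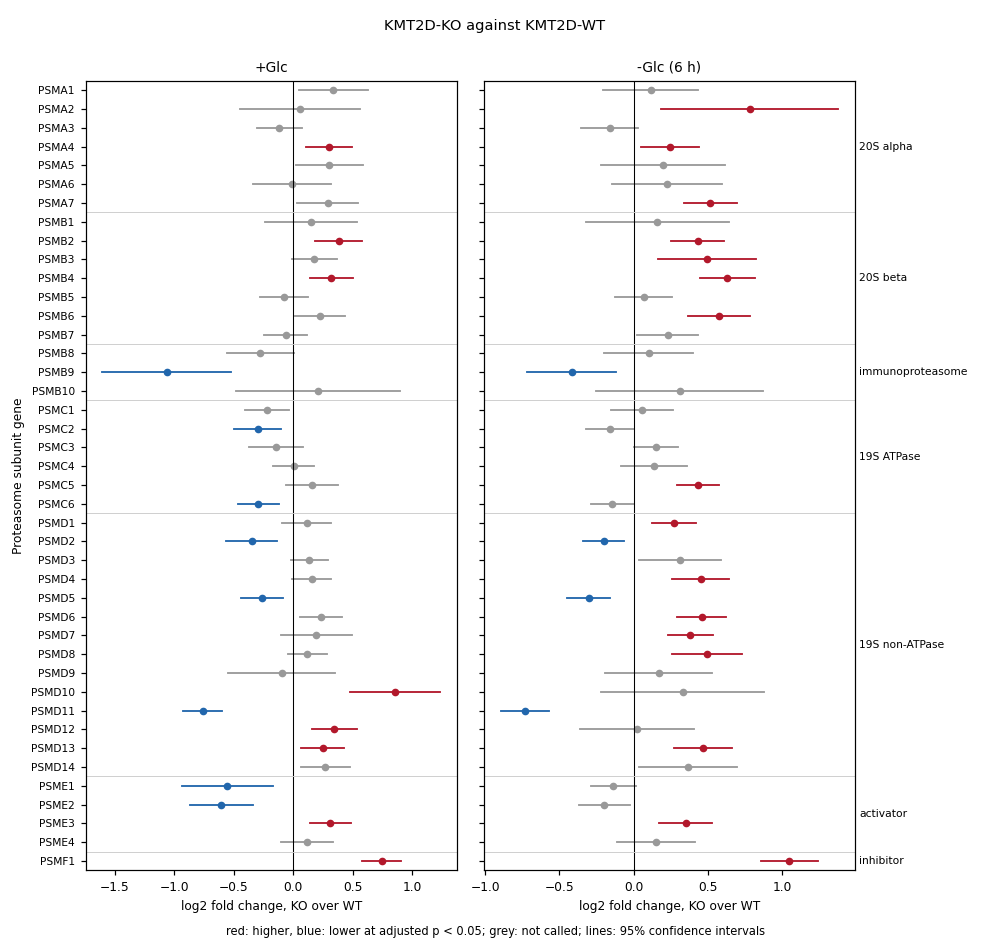
Log2 fold change (KO over WT) of the 42 tested members with glucose (left) and without it (right), ordered by role, with 95% confidence intervals as lines and called members in red (higher) or blue (lower). PSMF1 lies to the right and PSMD11 to the left in both panels, and more of the constitutive beta subunit genes are red without glucose.

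PSMF1 and PSMD11 differed between KO and WT in both conditions, in opposite directions. PSMF1 encodes PI31, a protein that inhibits the 20S core in vitro and has also been linked to proteasome transport and assembly. In +Glc WT cells PSMF1 was at 179 CPM in experiment 1 and 158 and 164 CPM in experiment 2. In +Glc KO cells it was at 305 (KO1) and 303 (KO2) CPM in experiment 1 and 255 (KO1) and 275 (KO2) CPM in experiment 2. Every KO library lay above every WT library, 1.68-fold higher in the fit (log2 fold change 0.74, SE 0.07, adjusted p = 1.97e-04). Without glucose PSMF1 was at 188 CPM in experiment 1 and 144 and 144 CPM in experiment 2 in WT, and at 423 (KO1) and 376 (KO2) CPM in experiment 1 and 303 (KO1) and 295 (KO2) CPM in experiment 2 in KO. The groups again did not overlap, and the fitted level was 2.07-fold higher (log2 fold change 1.05, SE 0.08, adjusted p = 1.31e-04). The ratio of the KO to the WT mean was alike in both experiments, 1.7 and 1.65 with glucose and 2.12 and 2.07 without.

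PSMD11, a scaffold subunit of the 19S lid that joins lid and core, was lower in KO cells. Its level was 309.996 CPM in experiment 1 and 255 and 237 CPM in experiment 2 in +Glc WT cells, and 179.8 (KO1) and 181 (KO2) CPM in experiment 1 and 139.7 (KO1) and 150.5 (KO2) CPM in experiment 2 in +Glc KO cells. All 4 KO libraries were below all 3 WT libraries (log2 fold change -0.76, SE 0.07, adjusted p = 1.84e-04). After 6 h without glucose the level was 355 CPM in experiment 1 and 296 and 295 CPM in experiment 2 in WT, and 223 (KO1) and 206 (KO2) CPM in experiment 1 and 182 (KO1) and 179.9 (KO2) CPM in experiment 2 in KO. The gap was of the same size, with no overlap (log2 fold change -0.73, SE 0.07, adjusted p = 2.64e-04), and the ratio of KO to WT means stayed between 0.582 and 0.613 over the 4 pairings of experiment and glucose condition. KO1 and KO2 did not differ detectably in either gene with glucose (log2 difference -0.06, 95% interval -0.23 to 0.10, for PSMF1 and -0.07, -0.24 to 0.10, for PSMD11). Both genes stayed called when any single library was left out and with the close pairs summed. In experiment 1 alone, with 1 WT library, neither was called.

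The promoters of these 2 genes are shown here. Their groups did not overlap in either condition, which also held for PSMD6 and PSME3, whose promoters are not shown. The windows from RefSeq (GRCh38.p14) hold 250 bases before and 50 after the start, written 5′ to 3′ on the gene's strand. A promoter window was found for 39 of the 44 members. Capitals mark matches, on either strand, to any of 7 motifs searched by letters: TGACNNNGC and TGAGNNNGC (the antioxidant response element read by NFE2L1 and NFE2L2), CCAAT (the NF-Y box), CCGGAAG (ETS factors), CACGTG (the E-box), TTCNNNGAA (STAT factors) and the element of interferon regulatory factors (IRF).
PSMF1 promoter (chr20:1118352-1118651, + strand): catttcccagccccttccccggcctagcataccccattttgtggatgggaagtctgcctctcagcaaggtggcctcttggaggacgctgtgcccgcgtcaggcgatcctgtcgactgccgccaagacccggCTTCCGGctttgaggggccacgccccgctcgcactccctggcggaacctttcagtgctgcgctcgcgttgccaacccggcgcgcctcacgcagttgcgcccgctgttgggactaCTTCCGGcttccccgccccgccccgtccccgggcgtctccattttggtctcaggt
PSMD11 promoter (chr17:32444260-32444559, + strand): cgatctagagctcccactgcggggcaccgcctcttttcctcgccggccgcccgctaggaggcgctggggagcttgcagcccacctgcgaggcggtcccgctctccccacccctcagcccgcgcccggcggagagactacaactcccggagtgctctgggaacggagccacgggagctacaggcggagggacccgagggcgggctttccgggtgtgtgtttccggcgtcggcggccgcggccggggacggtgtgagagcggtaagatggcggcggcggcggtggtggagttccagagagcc
The PSMF1 window shown holds the ETS letters at 2 places, both on the opposite strand (CTTCCGG). Another PSMF1 window (chr20:1113013-1113312) and the PSMD11 window hold none of the 7 motifs. The ETS letters were in 29.8% of the 47 windows of members and in 10.3% of all 35116 windows. For TGACNNNGC the shares were 27.7% and 13.4%, for TGAGNNNGC 27.7% and 18.3%, for CCAAT 40.4% and 34.6%, and for CACGTG 6.38% and 7.26%. Such matches describe the letters of the window only.

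In the 20S core, no member was called lower in KO in either condition. Of all tested genes 11.7% were called lower with glucose and 24.9% without. PSMA3 lay lower in KO within each experiment and condition but was not called (log2 fold change -0.12 with glucose and -0.16 without). With glucose 3 of the 14 tested core genes were higher, PSMB2, PSMB4 and the alpha subunit gene PSMA4 (log2 fold change 0.30, SE 0.08, adjusted p = 0.0297). Of all tested genes 13% were called higher there. Without glucose 7 core genes were higher, where 25.9% of all genes were called higher. The 7 were PSMA2, PSMA4, PSMA7, PSMB2, PSMB3, PSMB4 and PSMB6. PSMB4, a structural beta subunit important for core assembly, was at 361 CPM in experiment 1 and 214 and 211 CPM in experiment 2 in -Glc WT cells. Its level was 597 (KO1) and 529.7 (KO2) CPM in experiment 1 and 332 (KO1) and 337 (KO2) CPM in experiment 2 in -Glc KO cells. In each experiment the KO libraries were above the WT libraries, although the WT library of experiment 1 was above the KO libraries of experiment 2 (log2 fold change 0.63, SE 0.08, adjusted p = 7.36e-04). With glucose the KO to WT ratio was smaller (log2 fold change 0.32, SE 0.08, adjusted p = 0.0191), at 1.2 and 1.27 in the 2 experiments against 1.56 and 1.58 without glucose. That change in ratio did not pass its own test (adjusted p = 0.059). PSMB2, another structural beta subunit gene, was at 229.5 CPM in experiment 1 and 177 and 188 CPM in experiment 2 in +Glc WT cells. The level of PSMB2 was 279 (KO1) and 302 (KO2) CPM in experiment 1 and 219 (KO1) and 262 (KO2) CPM in experiment 2 in +Glc KO cells. It was higher by similar amounts in both conditions (log2 fold change 0.38, SE 0.09, adjusted p = 0.012 with glucose, and 0.43, adjusted p = 0.00315, without). The +Glc call of PSMB2 was lost without the WT library of experiment 1 (adjusted p = 0.0958) or WT1 of experiment 2 (0.0611). Without the WT library of experiment 1 the +Glc calls of PSMA4 and PSMB4 were lost too, and PSMF1 alone was called higher. PSMA2 was at 0.952 CPM in experiment 1 and 2.81 and 2.64 CPM in experiment 2 in -Glc WT cells. The level of PSMA2 was 1.25 (KO1) and 2.52 (KO2) CPM in experiment 1 and 3.99 (KO1) and 5.06 (KO2) CPM in experiment 2 in -Glc KO cells. It had the largest -Glc fold change among the alpha genes (log2 fold change 0.78, SE 0.25, adjusted p = 0.0374), but at a mean of 2.75 CPM and with its whole main transcript shared with another gene name, and the call was lost with the close pairs summed (adjusted p = 0.198) or without any 1 WT library (0.0952 to 0.151) or either KO library of experiment 2 (0.0585 and 0.135).

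The 3 constitutive catalytic genes did not move alike. PSMB5 bears the chymotrypsin-like site, PSMB6 the caspase-like site and PSMB7 the trypsin-like site. PSMB6 was at 316 CPM in experiment 1 and 180.5 and 181 CPM in experiment 2 in -Glc WT cells, and at 521 (KO1) and 449 (KO2) CPM in experiment 1 and 262 (KO1) and 278 (KO2) CPM in experiment 2 in -Glc KO cells, a fitted 1.49-fold difference (log2 fold change 0.58, SE 0.09, adjusted p = 0.00188, or 0.0525 with the close pairs summed). With glucose it was at 299 CPM in experiment 1 and 150.2 and 143 CPM in experiment 2 in WT and at 329 (KO1) and 364 (KO2) CPM in experiment 1 and 153 (KO1) and 189 (KO2) CPM in experiment 2 in KO, and was not called (log2 fold change 0.22, SE 0.09, adjusted p = 0.113). PSMB5 was at 299.7 CPM in experiment 1 and 169.9 and 146 CPM in experiment 2 in +Glc WT cells. The level of PSMB5 was 261 (KO1) and 282 (KO2) CPM in experiment 1 and 144 (KO1) and 163 (KO2) CPM in experiment 2 in +Glc KO cells. Its -Glc levels were 342 CPM in experiment 1 and 214 and 217 CPM in experiment 2 in WT and 375 (KO1) and 325 (KO2) CPM in experiment 1 and 229 (KO1) and 240.2 (KO2) CPM in experiment 2 in KO, so that the groups overlapped in both conditions. Its log2 fold change was -0.08 with glucose (95% interval -0.28 to 0.13) and 0.07 without (-0.12 to 0.26), not called in either. PSMB7 was at 358 CPM in experiment 1 and 229 and 224 CPM in experiment 2 in +Glc WT cells. The level of PSMB7 was 315 (KO1) and 356 (KO2) CPM in experiment 1 and 209 (KO1) and 226 (KO2) CPM in experiment 2 in +Glc KO cells. Without glucose it was at 406 CPM in experiment 1 and 286 and 282 CPM in experiment 2 in WT and 507 (KO1) and 428 (KO2) CPM in experiment 1 and 339 (KO1) and 349 (KO2) CPM in experiment 2 in KO. Within each experiment the -Glc KO libraries were above WT for PSMB7, yet the fold change missed the threshold (log2 fold change 0.23, SE 0.09, adjusted p = 0.0629), as it did with glucose (log2 fold change -0.06).

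**Figure D2:**
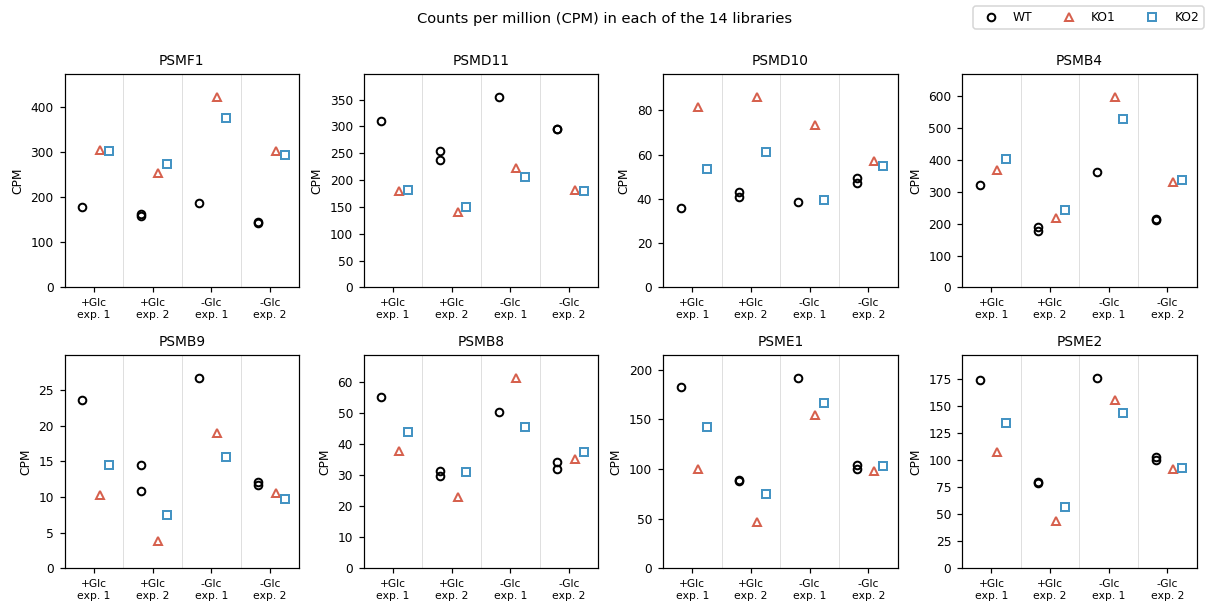
CPM of 8 members in each library, grouped along the x axis by glucose condition and experiment, with WT as circles and libraries labelled KO1 and KO2 as triangles and squares. PSMF1 is higher and PSMD11 lower in all 8 KO libraries than in the WT libraries of the same condition, while KO1 lies below KO2 in the +Glc panels of PSMB9, PSMB8, PSME1 and PSME2.

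Among the 19S genes, 3 of 20 were higher and 5 lower with glucose, where 13% and 11.7% of all genes were called. Without glucose 7 were higher and 3 lower, where 25.9% and 24.9% of all genes were called. The higher members with glucose were PSMD10, PSMD12 and PSMD13 and the lower ones PSMC2, PSMC6, PSMD2, PSMD5 and PSMD11. PSMD10 encodes gankyrin, which helps to assemble the 19S base and is not part of the finished particle. PSMD10 was at 35.7 CPM in experiment 1 and 40.7 and 43.2 CPM in experiment 2 in +Glc WT cells. The +Glc KO levels were 81.6 (KO1) and 53.2 (KO2) CPM in experiment 1 and 85.9 (KO1) and 61.2 (KO2) CPM in experiment 2. All KO libraries were above all WT libraries (log2 fold change 0.86, SE 0.17, adjusted p = 0.00596), and in each experiment KO1 was above KO2 (log2 difference 0.54, adjusted p = 5.42e-04). Without glucose PSMD10 was at 38.6 CPM in experiment 1 and 46.95 and 49.2 CPM in experiment 2 in WT and 73.3 (KO1) and 39.3 (KO2) CPM in experiment 1 and 56.9 (KO1) and 54.9 (KO2) CPM in experiment 2 in KO, where the groups overlapped and no call was made (log2 fold change 0.33, SE 0.23, adjusted p = 0.269). The call with glucose was lost without the WT library of experiment 1 (adjusted p = 0.0717). The +Glc call of PSMD13 was lost there as well, where PSMF1 alone was called higher. PSMD12, a lid subunit gene, was at 106 CPM in experiment 1 and 176 and 192 CPM in experiment 2 in +Glc WT cells. The level of PSMD12 was 146 (KO1) and 145 (KO2) CPM in experiment 1 and 224 (KO1) and 217 (KO2) CPM in experiment 2 in +Glc KO cells. It was higher with glucose (log2 fold change 0.34, SE 0.08, adjusted p = 0.0165) and had a log2 fold change of 0.02 without (adjusted p = 0.912). The +Glc call of PSMD12 was lost without the WT library of experiment 1 (adjusted p = 0.181) or WT1 of experiment 2 (0.0707), and with all 14 libraries in 1 fit (0.0551). Neither PSMD10 nor PSMD12 had a KO effect that differed detectably between glucose conditions in its own test (adjusted p = 0.279 and 0.285).

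PSMD2, the large base subunit that docks ubiquitin-carrying shuttle proteins, was at 1222 CPM in experiment 1 and 1058 and 859.7 CPM in experiment 2 in +Glc WT cells. The level of PSMD2 was 935 (KO1) and 838 (KO2) CPM in experiment 1 and 803 (KO1) and 771 (KO2) CPM in experiment 2 in +Glc KO cells. Its levels without glucose were 1264 CPM in experiment 1 and 1023 and 1029.8 CPM in experiment 2 in WT and 1098 (KO1) and 1039 (KO2) CPM in experiment 1 and 922 (KO1) and 933 (KO2) CPM in experiment 2 in KO. KO was below WT within each experiment and condition (log2 fold change -0.35, SE 0.09, adjusted p = 0.0262 with glucose, and -0.20, adjusted p = 0.0261, without). The -Glc call of PSMD2 was lost with RLE size factors (adjusted p = 0.0515), the close pairs summed (0.259), or without any 1 WT library or either KO library of experiment 2 (0.0826 to 0.117). PSMD5, an assembly factor of the 19S base, was at 98.6 CPM in experiment 1 and 136 and 132 CPM in experiment 2 in -Glc WT cells. The level of PSMD5 was 73.9 (KO1) and 75.8 (KO2) CPM in experiment 1 and 115 (KO1) and 117 (KO2) CPM in experiment 2 in -Glc KO cells. It was also lower in both conditions (log2 fold change -0.26, SE 0.08, adjusted p = 0.039, and -0.30, adjusted p = 0.0059), without a -Glc call when the close pairs were summed (adjusted p = 0.135) or the WT library of experiment 1 was left out (0.0544). The ATPase genes PSMC2 and PSMC6 were lower with glucose (log2 fold change -0.30 and -0.29), and PSMC5 was the only ATPase gene called without it, and higher (log2 fold change 0.43). Without the WT library of experiment 1, only 2 members were called lower with glucose, PSMD11 among them. Most of the +Glc calls of PSMC2, PSMC6, PSMD2 and PSMD5 therefore did not hold there. Without glucose the higher non-ATPase members were PSMD1, PSMD4, PSMD6, PSMD7, PSMD8 and PSMD13, with log2 fold changes from 0.27 to 0.50. PSMD4 encodes a ubiquitin receptor of the cap, whereas PSMD14, the deubiquitinase gene, had log2 fold changes of 0.27 and 0.37 and missed the threshold in both (adjusted p = 0.0588 and 0.0646).

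The immunoproteasome and PA28 genes formed a separate picture. PSMB9 was the member with the lowest fold change with glucose. It was at 23.6 CPM in experiment 1 and 10.8 and 14.5 CPM in experiment 2 in +Glc WT cells. The level of PSMB9 was 10.3 (KO1) and 14.5 (KO2) CPM in experiment 1 and 3.86 (KO1) and 7.5 (KO2) CPM in experiment 2 in +Glc KO cells. KO was below WT within each experiment, at 0.48 of the WT level in the fit (log2 fold change -1.06, SE 0.24, adjusted p = 0.0113), but not over both experiments, since KO2 of experiment 1 was level with a WT library of experiment 2. The call was lost without the WT library of experiment 1 (adjusted p = 0.0752) or the library labelled WT2 of experiment 2 (adjusted p = 0.0607). Without glucose PSMB9 was at 26.7 CPM in experiment 1 and 11.7 and 12.1 CPM in experiment 2 in WT and 18.99 (KO1) and 15.5 (KO2) CPM in experiment 1 and 10.5 (KO1) and 9.67 (KO2) CPM in experiment 2 in KO (log2 fold change -0.42, SE 0.13, adjusted p = 0.0292), a call that was no longer called with the close pairs summed (adjusted p = 0.162) or without any 1 WT library or either KO library of experiment 2 (adjusted p from 0.0519 to 0.214). The KO effect on PSMB9 did not differ detectably between the glucose conditions (log2 difference 0.67, adjusted p = 0.173).

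PSMB8 was at 55.2 CPM in experiment 1 and 29.7 and 31.5 CPM in experiment 2 in +Glc WT cells. The level of PSMB8 was 37.8 (KO1) and 43.998 (KO2) CPM in experiment 1 and 23.1 (KO1) and 30.9 (KO2) CPM in experiment 2 in +Glc KO cells, without a call (log2 fold change -0.28, SE 0.12, adjusted p = 0.141). In -Glc cells it was at 50.4 CPM in experiment 1 and 31.9 and 34.2 CPM in experiment 2 in WT and 61.3 (KO1) and 45.6 (KO2) CPM in experiment 1 and 35.2 (KO1) and 37.5 (KO2) CPM in experiment 2 in KO (log2 fold change 0.10, SE 0.13, adjusted p = 0.538). PSMB10 was the scarcest of the 3, at 7.55 CPM in experiment 1 and 2.34 and 2.28 CPM in experiment 2 in +Glc WT cells. The level of PSMB10 was 4.36 (KO1) and 8.81 (KO2) CPM in experiment 1 and 2.23 (KO1) and 4.18 (KO2) CPM in experiment 2 in +Glc KO cells. Its -Glc levels were 9.39 CPM in experiment 1 and 2.78 and 4.19 CPM in experiment 2 in WT and 7.58 (KO1) and 10.2 (KO2) CPM in experiment 1 and 4.37 (KO1) and 6.36 (KO2) CPM in experiment 2 in KO, and the log2 fold changes of 0.21 and 0.31 had wide intervals (-0.48 to 0.90 and -0.25 to 0.87). WT and KO overlapped for PSMB8 and PSMB10 in both conditions.

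PSME1 and PSME2 encode the 2 subunits of PA28, the interferon-inducible ring that opens the core. PSME1 was at 183 CPM in experiment 1 and 88.6 and 88.3 CPM in experiment 2 in +Glc WT cells. The level of PSME1 was 99.9 (KO1) and 142 (KO2) CPM in experiment 1 and 46.999 (KO1) and 75.03 (KO2) CPM in experiment 2 in +Glc KO cells. PSME2 was at 174 CPM in experiment 1 and 78.8 and 79.7 CPM in experiment 2 in +Glc WT cells. The level of PSME2 was 107 (KO1) and 134 (KO2) CPM in experiment 1 and 43.8 (KO1) and 56.3 (KO2) CPM in experiment 2 in +Glc KO cells. Both were lower in KO within each experiment (PSME1 log2 fold change -0.55, SE 0.17, adjusted p = 0.0414, and PSME2 -0.60, adjusted p = 0.00598). Leaving out any 1 WT library, or KO1 of either experiment, ended the PSME1 call (adjusted p from 0.0565 to 0.207). Without glucose PSME1 was at 192 CPM in experiment 1 and 100.4 and 104 CPM in experiment 2 in WT and 155 (KO1) and 166 (KO2) CPM in experiment 1 and 97.8 (KO1) and 103 (KO2) CPM in experiment 2 in KO. PSME2 was at 176 CPM in experiment 1 and 101 and 103 CPM in experiment 2 in -Glc WT cells. The level of PSME2 was 156 (KO1) and 143 (KO2) CPM in experiment 1 and 92.1 (KO1) and 92.5 (KO2) CPM in experiment 2 in -Glc KO cells. Neither was called there (log2 fold change -0.14 and -0.20, adjusted p = 0.119 and 0.055), and the difference between the conditions did not pass its test (adjusted p = 0.2 and 0.073).

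The other activators went differently. PSME3, the nuclear PA28 homologue that is not an interferon-induced gene, was at 187 CPM in experiment 1 and 172 and 172 CPM in experiment 2 in +Glc WT cells. The level of PSME3 was 227 (KO1) and 235 (KO2) CPM in experiment 1 and 201 (KO1) and 225 (KO2) CPM in experiment 2 in +Glc KO cells. Its levels without glucose were 189 CPM in experiment 1 and 183 and 187 CPM in experiment 2 in WT and 255 (KO1) and 230.2 (KO2) CPM in experiment 1 and 238 (KO1) and 242 (KO2) CPM in experiment 2 in KO. It was higher in every KO library than in every WT library of the same condition (log2 fold change 0.31, SE 0.07, adjusted p = 0.0156 with glucose, and 0.35, adjusted p = 0.00758, without). The +Glc call of PSME3 was lost without the WT library of experiment 1 (adjusted p = 0.132) or WT1 of experiment 2 (0.0597), and the -Glc call without the WT library of experiment 1 (0.0612) or with the close pairs summed (0.121). PSME4, the large activator PA200, was at 94.9 CPM in experiment 1 and 197 and 188 CPM in experiment 2 in +Glc WT cells. The level of PSME4 was 116 (KO1) and 95.01 (KO2) CPM in experiment 1 and 216 (KO1) and 189 (KO2) CPM in experiment 2 in +Glc KO cells. In -Glc cells it was at 105 CPM in experiment 1 and 184 and 179.96 CPM in experiment 2 in WT and 87.1 (KO1) and 124 (KO2) CPM in experiment 1 and 222 (KO1) and 219 (KO2) CPM in experiment 2 in KO, with overlap in both conditions and no call (log2 fold change 0.11 and 0.15). In both conditions PSME4 was higher in all libraries of experiment 2 than in those of experiment 1.

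The promoters of PSMB9, PSMB10, PSME1 and PSME2 are given because these genes share an interferon response in other settings and differed here between genotypes or lines.
PSMB9 promoter (chr6:32853942-32854241, + strand): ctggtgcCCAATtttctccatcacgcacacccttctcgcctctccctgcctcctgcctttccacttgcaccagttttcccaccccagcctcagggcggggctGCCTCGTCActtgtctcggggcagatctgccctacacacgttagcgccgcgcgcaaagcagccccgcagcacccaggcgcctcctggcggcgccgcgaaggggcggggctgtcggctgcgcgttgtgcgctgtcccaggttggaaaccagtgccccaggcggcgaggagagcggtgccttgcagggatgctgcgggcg
PSMB10 promoter (chr16:67936801-67937100, - strand): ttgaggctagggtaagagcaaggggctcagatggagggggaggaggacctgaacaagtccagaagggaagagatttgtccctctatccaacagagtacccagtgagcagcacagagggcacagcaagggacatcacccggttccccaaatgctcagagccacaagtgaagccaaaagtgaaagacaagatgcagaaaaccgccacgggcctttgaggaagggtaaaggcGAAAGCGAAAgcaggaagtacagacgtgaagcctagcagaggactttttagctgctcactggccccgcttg
PSME1 promoter (chr14:24135944-24136243, + strand): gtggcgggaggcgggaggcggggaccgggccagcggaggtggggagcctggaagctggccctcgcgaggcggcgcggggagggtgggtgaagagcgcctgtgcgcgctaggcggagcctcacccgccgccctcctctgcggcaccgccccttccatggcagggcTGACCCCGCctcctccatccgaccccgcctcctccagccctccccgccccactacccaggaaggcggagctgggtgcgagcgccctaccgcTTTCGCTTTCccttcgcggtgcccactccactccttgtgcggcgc
PSME2 promoter (chr14:24146561-24146860, - strand): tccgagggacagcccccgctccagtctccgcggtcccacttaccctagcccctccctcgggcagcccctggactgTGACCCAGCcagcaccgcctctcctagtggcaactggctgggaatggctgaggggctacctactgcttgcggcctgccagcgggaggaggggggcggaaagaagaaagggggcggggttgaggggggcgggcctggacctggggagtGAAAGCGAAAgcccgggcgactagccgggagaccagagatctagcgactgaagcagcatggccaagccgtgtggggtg
The IRF letters were found in the windows of PSMB10, PSME1 and PSME2 (on the opposite strand in PSME1), in 1 of the 2 windows of PSMB8, and not in that of PSMB9, which holds TGACNNNGC (printed as GCCTCGTCA) and CCAAT. The IRF letters were also in the window of PSMB4 and in a window of PSMA4, both constitutive core genes. Over all members 12.8% of the windows held the IRF letters, against 3.57% of all promoter windows. For the STAT letters the shares were 17.0% and 7.66%. The members with them were PSMA2, PSMA8, PSMB5, PSMB8, PSMC4, PSMD2, PSMD3 and PSME3.

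The interferon and antigen-presentation genes listed as partners of the immunoproteasome were called in both directions. Of 11, 1 was higher and 5 lower with glucose, where 13% and 11.7% of all genes were called. Without glucose 4 were higher and 3 lower, where 25.9% and 24.9% of all genes were called. IRF1, the transcription factor that drives PSMB9 and TAP1, was at 26.5 CPM in experiment 1 and 14.9 and 15.1 CPM in experiment 2 in +Glc WT cells. The level of IRF1 was 7.43 (KO1) and 12.1 (KO2) CPM in experiment 1 and 6.51 (KO1) and 8.55 (KO2) CPM in experiment 2 in +Glc KO cells, with all KO libraries below all WT libraries (log2 fold change -1.16, SE 0.19, adjusted p = 0.00251). The +Glc call was lost without the WT library of experiment 1 (adjusted p = 0.056). IRF1 was also lower without glucose (log2 fold change -1.35, adjusted p = 1.38e-04). TAP1, the peptide transporter gene next to PSMB9, was lower with glucose (log2 fold change -0.45, SE 0.10, adjusted p = 0.0108) and not called without it (log2 fold change 0.05), a difference between conditions that passed its test (log2 difference 0.52, adjusted p = 0.0287). The dependence of that difference on single libraries and the close pairs was not examined, and experiment 2 enters it with the difference in counted mates. The +Glc call of TAP1 was lost without the WT library of experiment 1 (adjusted p = 0.138) or WT1 of experiment 2 (0.0586). NLRC5, the MHC class I transactivator, was lower in both conditions (log2 fold change -0.96 and -0.95), whereas HLA-B, an MHC class I heavy chain, was higher in both (0.43 and 0.89). For NLRC5 and HLA-B the dependence on the close pairs and on single libraries was not examined.

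The KO lines also differed in these genes. With glucose, 3 of 42 members were higher and 9 lower in KO1 than in KO2, where 7.32% and 7.4% of all genes were called (14.7% in either direction). All 3 immunoproteasome genes were lower in KO1, PSMB10 with a log2 difference of -0.95 (adjusted p = 0.00833), PSMB9 with -0.75 (adjusted p = 0.0079) and PSMB8 with -0.34 (adjusted p = 0.0429). PSME1 (log2 fold change -0.61, SE 0.08, adjusted p = 8.02e-05) and PSME2 (log2 difference -0.35) were lower too. PSMD9, an assembly factor, PSMD7, PSMC3 and PSMC5 made up the rest, PSMD9 with a log2 difference of -0.65 (KO1 18.1 and 4.88 CPM, KO2 25.9 and 8.19 CPM). The 3 higher members were PSMB1 (KO1 247 and 162 CPM, KO2 161 and 110.4 CPM, log2 fold change 0.57, SE 0.08, adjusted p = 1.42e-04), PSMD10 and PSMA5 (log2 difference 0.31). KMT2D mRNA was lower in KO1 by the same test (log2 difference -0.94), and 5 of 7 tested squamous epithelial markers were lower in KO1. The part of these in the members' differences was not tested. Each line had 1 library per experiment, so the count depends on single libraries. It was 2 higher and 1 lower without KO2 of experiment 2, 2 higher and 4 lower without any other 1 KO library, and 6 higher and 12 lower without the library labelled WT2 of experiment 2.

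**Figure D3:**
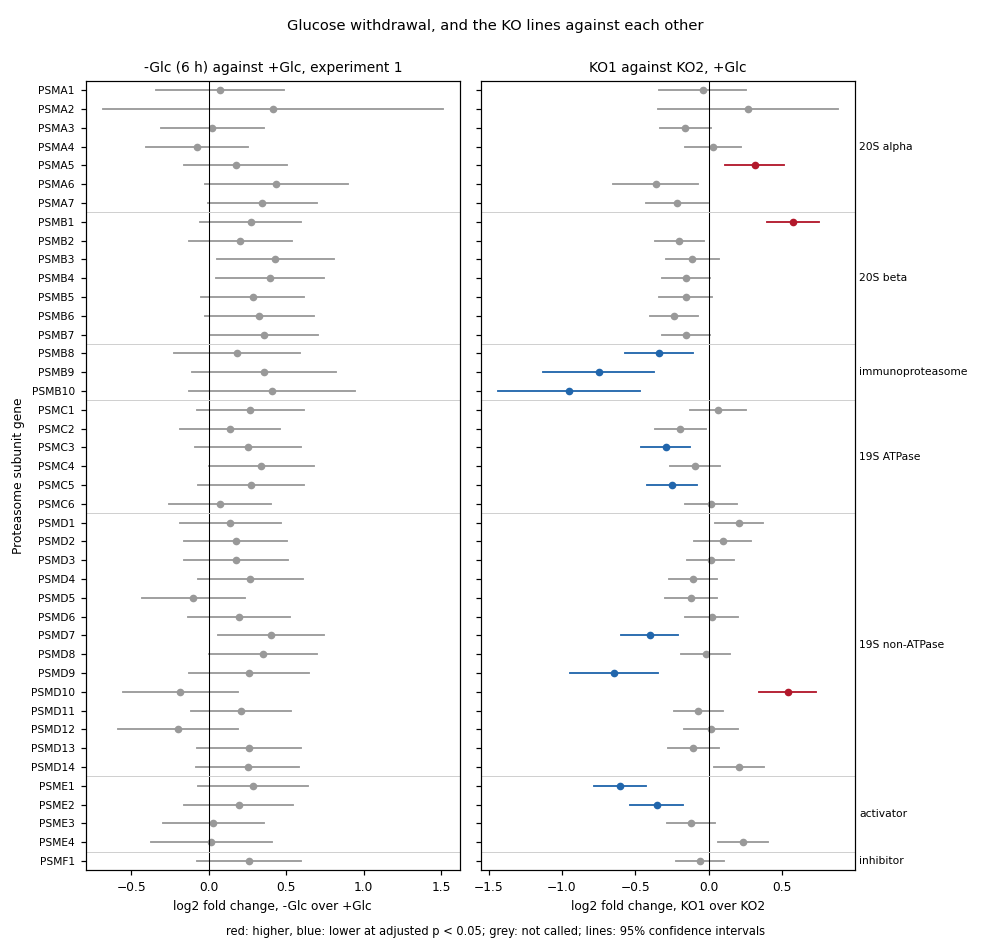
Log2 fold change of the 42 tested members after 6 h without glucose in experiment 1 (left) and between the lines KO1 and KO2 with glucose (right), with 95% confidence intervals as lines and called members in red (higher) or blue (lower). No member is called on the left, where 38 of 42 points lie above 0, and all immunoproteasome genes are blue on the right.

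Glucose withdrawal itself was compared within experiment 1, with the line as a covariate, since the +Glc libraries of experiment 2 were counted from both mates and the -Glc ones were not. No member was called in either direction by edgeR, where 0.479% of all genes were called higher and 0.622% lower (1.1% in either direction). At an unadjusted p under 0.05 there were 5 of 42 members, all higher without glucose, and none lower, where 7.66% and 11.7% of all genes were. DESeq2 with the same design called 0 as well. The fold change was positive for 38 of 42 members and for 48% of all genes, with a median of 0.26 against -0.02 over all genes. The 5 members were PSMB3 (0.43), PSMB4 (0.40), PSMB7 (0.36), PSMD7 (0.40) and PSMD8 (0.35), in log2 fold change. Their adjusted p ran from 0.203 to 0.256. Each line had 1 library per condition, and in all 5 the ratio of CPM without to with glucose was largest in KO1. It was 1.08 (PSMD8) to 1.23 (PSMD7) in WT. In KO1 it was 1.57 (PSMD8) to 1.83 (PSMB3), and in KO2 1.203 (PSMB7) to 1.31 (PSMB4). Over all members, 31 were higher without glucose in all 3 lines and 0 were lower in all 3. The share of all genes with that pattern was not computed, so these counts have no background to be read against. With experiment 2 alone 30 members were called higher and 1 lower, where 26% and 23.8% of all genes were, but there glucose and the counting of mates cannot be told apart.

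The KO effect was then compared between the glucose conditions. Of 42 members, 2 had a higher KO effect without glucose and none a lower one, where 4.73% and 6.54% of all genes were called (11.3% in either direction). At an unadjusted p under 0.05 there were 16 members with a higher effect and 0 with a lower one, where 13% and 14.3% of all genes were. DESeq2 with the same design called 11 higher and 0 lower, with 9.66% and 8.93% of all genes. The 2 were PSMF1 (log2 difference 0.33, SE 0.10, adjusted p = 0.0482) and PSMD8, a lid subunit gene (log2 difference 0.40, SE 0.11, adjusted p = 0.0366). PSMD8 was at 213 CPM in experiment 1 and 123 and 131 CPM in experiment 2 in +Glc WT cells. The level of PSMD8 was 228 (KO1) and 228 (KO2) CPM in experiment 1 and 137 (KO1) and 139 (KO2) CPM in experiment 2 in +Glc KO cells. Without glucose it was at 229 CPM in experiment 1 and 135 and 139.7 CPM in experiment 2 in WT and 359 (KO1) and 292 (KO2) CPM in experiment 1 and 198 (KO1) and 195 (KO2) CPM in experiment 2 in KO. The ratio of KO to WT means went from 1.07 and 1.09 with glucose to 1.42 and 1.43 without. Neither call held with the close pairs summed (adjusted p = 0.23 for PSMF1 and 0.197 for PSMD8), nor without any 1 of the WT libraries (adjusted p up to 0.142 and 0.115), and experiment 2 enters this test with the difference in counted mates.

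Within single experiments and glucose conditions the order of KO and WT could be read without a model. In all 4 such blocks every KO library was above every WT library for 15 of 42 members (35.7%), against 15% of all genes, and below for 8 of 42, against 15.5%. The 15 were PSMA4, PSMA7, PSMB2, PSMB3, PSMB4, PSMB6, PSMD3, PSMD4, PSMD6, PSMD8, PSMD10, PSMD13, PSMD14, PSME3 and PSMF1. The 8 were PSMA3, PSMB9, PSMC2, PSMC6, PSMD2, PSMD5, PSMD11 and PSME2. Over both experiments together, 4 members lay wholly above WT with glucose (PSMD6, PSMD10, PSME3 and PSMF1, 9.66% of all genes) and 7 without (PSMB2, PSMC5, PSMD6, PSMD7, PSMD13, PSME3 and PSMF1, 16.3% of all genes). PSMD11 alone lay wholly below in both (10.4% and 18.9% of all genes).

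Summed levels differed between the experiments as well as between the genotypes. Summed over the constitutive beta genes, +Glc WT cells had 1952 CPM in experiment 1 and 1110 and 1181 CPM in experiment 2, and +Glc KO cells 2078 and 2155 CPM and then 1245 and 1348 CPM. Without glucose the sums were 2177, 1420 and 1424 CPM in WT and 2624 to 3208 CPM (experiment 1) and 1820 to 1879 CPM (experiment 2) in KO. KO was above WT within each experiment. The 3 immunoproteasome genes summed to 86.4 CPM in WT and 52.4 and 67.3 CPM in KO in experiment 1 with glucose, and to 42.9 and 48.3 CPM in WT and 29.2 and 42.6 CPM in KO in experiment 2. Without glucose KO and WT overlapped in that sum, at 71.3 and 87.9 CPM against 86.5 CPM in experiment 1, and 50.01 and 53.6 CPM against 46.4 and 50.5 CPM in experiment 2. Per kilobase of main transcript, the highest mean level of a member in +Glc WT cells was that of PSMD2 (359 CPM per kb), then PSMB7 (275), PSMA7 (257), PSMB4 (249) and PSMB6 (239), in CPM per kb, while PSMB9 was at 16.0 and PSMF1 at 20.5.

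**Figure D4:**
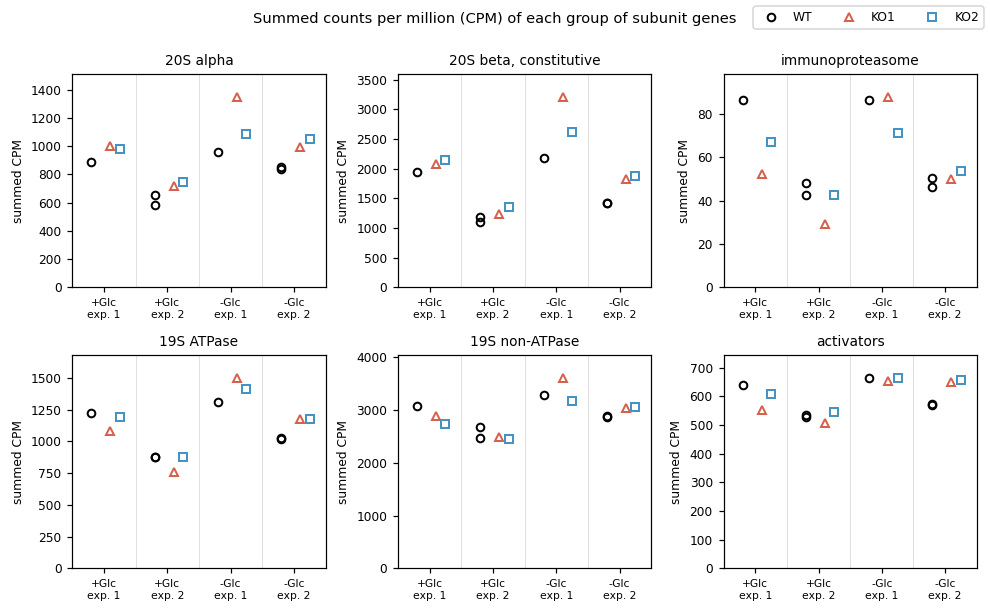
Summed CPM of 6 groups of members in each library, by glucose condition and experiment along the x axis, with WT as circles and libraries labelled KO1 and KO2 as triangles and squares. The beta sum lies above WT in all KO libraries of the same experiment and condition, and the immunoproteasome sum below WT in all +Glc KO libraries of the same experiment.

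Genes that make, supply and control the proteasome were described from lists of related genes. Beside the counts of these lists and of the cell type markers, 13% of all tested genes were called higher and 11.7% lower with glucose. Without glucose the shares were 25.9% and 24.9%. Of 6 assembly chaperones 4 were higher in KO with glucose and 2 without, and none was lower. POMP, the chaperone that matures the 20S core, was higher in both (log2 fold change 0.50, SE 0.12, adjusted p = 0.0182 with glucose, and 0.56, adjusted p = 0.00352, without). Its +Glc call was lost without the WT library of experiment 1 (adjusted p = 0.173) or WT2 of experiment 2 (0.0677), and its -Glc call with the close pairs summed (0.0713). PSMG1, PSMG3 and PSMG4, which help to build the alpha ring, were higher with glucose (log2 fold change 0.31, 0.58 and 0.46), and PSMG1 also without (0.49), whereas PSMG2, the partner of PSMG1, was called in neither (-0.09 and 0.04). The PSMG4 call was lost without the WT library of experiment 1 (adjusted p = 0.105), the +Glc call of PSMG1 without any 1 library but KO1 of experiment 2 (up to 0.301), and its -Glc call with the close pairs summed (0.178). Of 8 proteasome partners with other names, 1 was higher and 2 lower with glucose and 4 higher and 3 lower without. Among them the ubiquitin receptor gene ADRM1 was called in neither (log2 fold change -0.06 and 0.25), and SEM1, a small lid subunit gene, was higher without glucose (0.50, adjusted p = 7.94e-04, or 0.0541 with the close pairs summed) but not called with it (0.38).

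NFE2L1 itself was not called in either condition (log2 fold change -0.20, adjusted p = 0.0772, and -0.14, adjusted p = 0.506). Of the 10 regulators, 1 was higher and 2 lower with glucose and 2 higher and 3 lower without. UFD1, a cofactor of the segregase VCP, was lower in both (log2 fold change -1.23 and -0.71), and NFE2L2, the oxidative stress factor, was higher without glucose (1.04, adjusted p = 0.00116). Of 7 tested shuttle receptors 2 were higher and 2 lower with glucose and 1 and 1 without. Of 6 ubiquitin and E1 enzyme genes, 3 were higher and 2 lower with glucose and 3 higher and 1 lower without, led by RPS27A, which encodes ubiquitin fused to a ribosomal protein (log2 fold change 0.70 and 1.04). Beside these counts, 6 of 8 squamous epithelial markers were higher in KO without glucose and none with it, where 1 of 7 was lower, and their part in the members' differences was not tested. Of 5 fibroblast markers, both tested with glucose were higher in KO, COL1A1 (log2 fold change 1.26) and COL1A2 (2.72), as was COL1A1, the 1 tested, without (1.33). Their summed level was 5.76 to 7.09 CPM in WT and 12.5 to 21.4 CPM in KO with glucose, and 3.21 to 5.58 and 7.37 to 14.04 CPM without, while DCN and LUM stayed under 1 CPM. Of 4 endothelial markers only CDH5 was tested, higher in KO without glucose (log2 fold change 2.24, adjusted p = 0.00143) and not called with it (0.83), and their sum was 0.388 to 0.8 CPM in WT and 2.19 to 3.31 CPM in KO without glucose. The part of these markers in the members' differences was not tested. How the calls of UFD1, NFE2L2, RPS27A, COL1A1 and CDH5 depend on the close pairs or on single libraries was not examined.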

How the data were processed

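Counts of 14 RNA-seq libraries of SCC23 cells were analysed. Per the file headers and the study's methods, the authors aligned reads with HISAT2 to GRCh38 and deposited raw read counts per gene name made by featureCounts v2.0.3 with Ensembl release 102, without strand. Reads that matched several gene names were not assigned. In 4 libraries (+Glc, experiment 2) both mates were counted. The authors tested with DESeq2, with a design not given in the sources used here. Groups, lines and experiments came from the sample titles.

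Here edgeR 4.0.16 in R 4.3.3 was run on the deposited counts, with filterByExpr (minimum count 10), TMM scaling, quasi-likelihood tests over all genes, and the experiment as a covariate (the line for the glucose comparison). Same-numbered experiments shared their deviations: over genes, the experiment difference of WT and KO correlated at 0.912 with glucose and 0.853 without. The pairing comes from the experiment named in the titles. Alternatives were other size factors, no filter, a gene length offset, both-mate counts halved, close pairs summed, no covariate, DESeq2 1.42.0, single lines or experiments, and leaving out each library. The tests were tested on simulated data.

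The members and lists were chosen with earlier results of these data known. Named members were the catalytic, immunoproteasome, activator and inhibitor genes, plus up to 4 called members with the largest change in each direction with a mean of at least 1 CPM. Other genes named in the text were chosen after their values were seen. Library depth was 15669154 to 62968057 counts. Promoters came from RefSeq (GRCh38.p14). PSMA8 and PSMB11 were not tested.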

Additional observations from a re-analysis of the deposited data

Results flagged for a closer look

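PSMF1 and PSMD8 had KO effects that differed between the glucose conditions by the test of the difference, 0.33 and 0.40 on the log2 scale, both larger without glucose. They were 2 of 42 members, where 4.73% of all genes were called in that direction. Neither call held with the close pairs summed or without any 1 WT library. Experiment 2 enters this test with the difference in counted mates. Of 46 sets of 4 KO libraries checked for a single distant library, 2 had one. Each set held libraries labelled KO1 and KO2 from both experiments, and the cause of the distance was not tested. PSMB1 in -Glc KO cells was 332 CPM in the KO1 library of experiment 1 and 192 CPM in the nearest of the others. PSMD9 in -Glc KO cells was 35.8 CPM in the KO2 library of experiment 1 and 23.1 CPM in the nearest of the others.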

How the results depend on the processing

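The counts of called members depended on how the spread was estimated, and the causes were not tested. Counts are given as higher then lower in KO. Fits of KO1 or KO2 alone follow the line labels as given, which without glucose are in doubt for experiment 2. With glucose (8 and 8 as reported) they were 1 and 1 with no replicate block (the experiment left out), 3 and 1 in DESeq2 with no replicate block, 15 higher with KO2 alone, 0 and 0 in experiment 1 alone and 2 and 2 in experiment 2 alone. Leaving out single libraries gave 1 to 8 and 2 to 7, lowest without the WT library of experiment 1 (1 and 2). Without glucose (16 and 4) they were 1 and 1 with no replicate block, 7 and 1 in DESeq2 with no replicate block, 2 lower with KO1 alone, 8 lower with KO2 alone, 2 lower with all 14 libraries in 1 fit, 0 and 0 in experiment 1 alone, 28 and 8 in experiment 2 alone, and 2 and 1 with the close pairs summed. Leaving out single libraries gave 10 to 24 and 1 to 10, highest without the KO1 library of experiment 1 (24 and 10). Members with a higher KO effect without glucose (2) numbered 4 with RLE size factors, 0 without the filter, 9 with a gene length offset, 0 with no replicate block, 11 in DESeq2, 0 in experiment 1 alone, 5 in experiment 2 alone, 0 with the close pairs summed, and 0 to 9 without single libraries, where 0 to 2 had a lower effect. For glucose withdrawal (0 and 0) there were 28 higher with all 14 libraries, 30 higher and 1 lower in experiment 2 alone, and 0 to 0 without single libraries. KO1 against KO2 (3 and 9) gave 0 and 0 with no replicate block, 6 higher in DESeq2, 6 higher with the 4 KO libraries alone, and 2 to 6 and 1 to 12 without single libraries.

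The sign of some genes that were not called in the comparison as reported turned, here as log2 fold changes. With glucose, with no replicate block, PSMB5 was 0.0604, PSMB7 0.042, PSME4 -0.053 and ADRM1 0.15, and in DESeq2 with no replicate block 0.077, 0.058, -0.038 and 0.16. KMT2D was 0.072 with a gene length offset, 0.37 with KO2 alone (adjusted p = 0.00241, edgeR) and 0.041 in experiment 2 alone. PSMB10 was -0.34 and PSMG2 0.095 with KO1 alone, PSMB7 0.0054 and PSME4 -0.0056 with KO2 alone, and PSMB10 -0.19 in experiment 1 alone. Without glucose, PSMG4 was -0.0088 without the filter and PSME1 0.036 in DESeq2 with no replicate block. With KO2 alone, PSMG2 was -0.067, PSMG4 -0.051, NFE2L1 0.0040 and TAP1 -0.011. PSMB10 was -0.073 in experiment 1 alone, and PSMG2 -0.052 and PSMG4 -0.024 in experiment 2 alone. Leaving out single libraries gave KMT2D -0.33 to 0.18 and PSMB10 -0.11 to 0.46 with glucose, and PSMG2 -0.0901 to 0.11 and PSMG4 -0.077 to 0.047 without. PSMA2 and PSMB10, at 0.92 to 10.2 CPM, rest on the fewest counts among the tested members.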
